A study of Mus musculus with 2 samples.

Results

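Cluster 8 was 1 of the 19 cell clusters that the authors deposited for thymocytes of Cdc42-deficient mice and their controls, and it held 616 of the 13683 cells. Its cells were taken by the deposited cluster number alone, 250 from the WT-labelled library and 366 from the KO-labelled library. The WT-labelled library was made from the pooled thymuses of 5 Cdc42 f/f mice and the KO-labelled library from 5 Cdc42 f/f CD4Cre littermates, all 6 weeks old. Both groups therefore carried the floxed allele, and the groups differed in the Cre transgene, whose CD4 promoter becomes active around the double positive (DP) stage, so that cells of earlier stages need not have lost Cdc42. Each condition was 1 library of single-cell RNA counted by unique molecular identifiers (UMIs). Levels are given as CPM, the UMIs of a gene scaled to 1000000 summed UMIs of the group. With 1 library each, no difference between conditions could be tested, and every interval given here is a 95% interval that covers counting error only. The clusters had been built from the same counts, so a difference between clusters is a description and not a test.

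DP thymocytes are the most numerous cells of the thymus. They express both coreceptors, CD4 and CD8, and keep the recombinase genes Rag1 and Rag2 on while they rearrange the T cell receptor alpha chain. Mitochondria hold their own small genome, which is transcribed inside the organelle and encodes 13 messenger RNAs and 2 ribosomal RNAs, whereas the messenger RNAs of ribosomal proteins and of most respiratory chain subunits come from the nucleus and are translated in the cytoplasm. Some long RNAs, among them Malat1 and Xist, stay in the nucleus. Lars2, the gene that gave the cluster its working name, encodes the enzyme that loads leucine onto mitochondrial transfer RNA.

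Cdc42, the small GTPase that was targeted, had 41 UMIs or 141 CPM (interval 102 to 192) in cluster 8 of the WT-labelled library and 86 UMIs or 177 CPM (142 to 218) in that of the KO-labelled one. The log2 ratio of KO over WT was 0.31 (−0.23 to 0.90) in the cluster, an interval that includes 0, and −0.16 (−0.22 to −0.10) in the DP clusters 0 to 4, where Cdc42 had 358 and 321 CPM. A 3′ tag outside the deleted exons does not check the deletion, so these values leave the labels unchecked and the libraries are named by their labels.

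The libraries held 29706197 and 37920214 UMIs, with medians of 3192 and 3401 per cell. Only 17 barcodes occurred in both, 1 of them with a cell in cluster 8. Cluster 8 made up 4.09% (3.61 to 4.62) of the WT-labelled cells and 4.84% (4.36 to 5.34) of the KO-labelled cells, and its UMIs summed to 289835 and 486113. At the finer clustering resolutions of 1.8 and 2 that were also deposited, all 616 cells stayed in 1 cluster, of 618 and 616 cells. The comparison group was clusters 0 to 4, with 3636 and 4641 cells. A single KO-labelled cell of cluster 8 with 25647 UMIs, against 7380 in the next deepest, was set apart from the summed counts, as were 6 cells of over 10000 UMIs in clusters 0 to 4.

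A stretch of the Lars2 transcript is shown first because its letters bear on what a Lars2 UMI can be. In the mouse genome GRCm38 with the GENCODE vM21 annotation, Lars2 lies on the plus strand at chr9:123366927-123462666 and has 21 exons. The stretch lies within its 3′ untranslated region, in the last exon, at chr9:123462161-123462190, 474 bases before the transcript's end. The capitals mark 15 letters that are the core of the sarcin-ricin loop of large-subunit ribosomal RNA, and the lower case letters are the Lars2 bases on both sides.
Lars2 stretch: tcctgctcAGTACGAGAGGAACCgcagcta
A search for these 15 letters on both strands of 141767 annotated transcripts of 55341 genes found them in 2 transcripts, 0.00141% of those searched, both of Lars2. The searched set thus held no ribosomal RNA transcript with these letters, and the search does not cover the RNA they are named for. The lower case letters were not compared with ribosomal RNA. The match describes the letters. Lars2 counts are given below as uncertain, since whether ribosomal RNA contributed to them was not tested.

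By the markers given for it, the cluster fitted its working name only in part. Lars2 was at 1532 CPM (1393 to 1681) in the WT-labelled library and 1193 CPM (1098 to 1294) in the KO-labelled library, against 544 and 393 CPM in clusters 0 to 4. Its log2 ratio over clusters 0 to 4 was 1.495 (1.35 to 1.63) and 1.604 (1.48 to 1.73), so the gene was higher in the cluster in both libraries. Rag1, the recombinase subunit, was at 1711 and 2063 CPM against 2928 and 2751 CPM, a log2 ratio of −0.77 (−0.91 to −0.65) and −0.41 (−0.51 to −0.32). Rag1 was thus present at a high level but below that of the DP clusters, though without the cells of over 10% mitochondrial UMIs its ratio was −0.22 and 0.019. Arpp21, an RNA-binding phosphoprotein known from DP thymocytes, was at 1470 and 1510 CPM against 1468 and 1399 CPM, a log2 ratio of 0.00 (−0.14 to 0.14) and 0.11 (0.00 to 0.22), the latter of which turned to −0.095 with TMM and −0.067 with DESeq2 scaling. None of the 3 markers was among the 10 genes with the highest mean share of a cell's UMIs relative to all other cells. Those were Gm26917, at 22.2 times the mean of the other cells, Mir6236 at 5.66 times, mt-Rnr1, mt-Rnr2, Gm36931, mt-Nd1, mt-Cytb, Tsix, mt-Nd2 and mt-Atp6, and Lars2 followed at rank 18 with 2.85 times. With such leading genes, and a WT-labelled median depth of 955.5 UMIs where all cells of that library had 3192, the cells are given no cell type name.

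The cells of cluster 8 gave few UMIs, while at the cluster's median they gave about as many mitochondrial UMIs as DP cells. A cell held a median of 955.5 UMIs (lowest 505, highest 4428) in the WT-labelled library and 1199.5 UMIs (504 to 25647) in the KO-labelled library, where clusters 0 to 4 had medians of 2823 and 3097. Mitochondrial genes took a median of 18.6% and 15.7% of the UMIs, against 6.08% and 6.01%. In molecules, the median was 192.5 and 194 mitochondrial UMIs per cell beside 175 and 191 in clusters 0 to 4, whereas the other UMIs numbered 763.5 and 937.5 beside 2639 and 2909. These are medians of the whole cluster, and both numbers differed widely within it, as the bins of mitochondrial share below show. Fewer UMIs captured and less RNA per cell cannot be told apart.

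**Figure D1:**
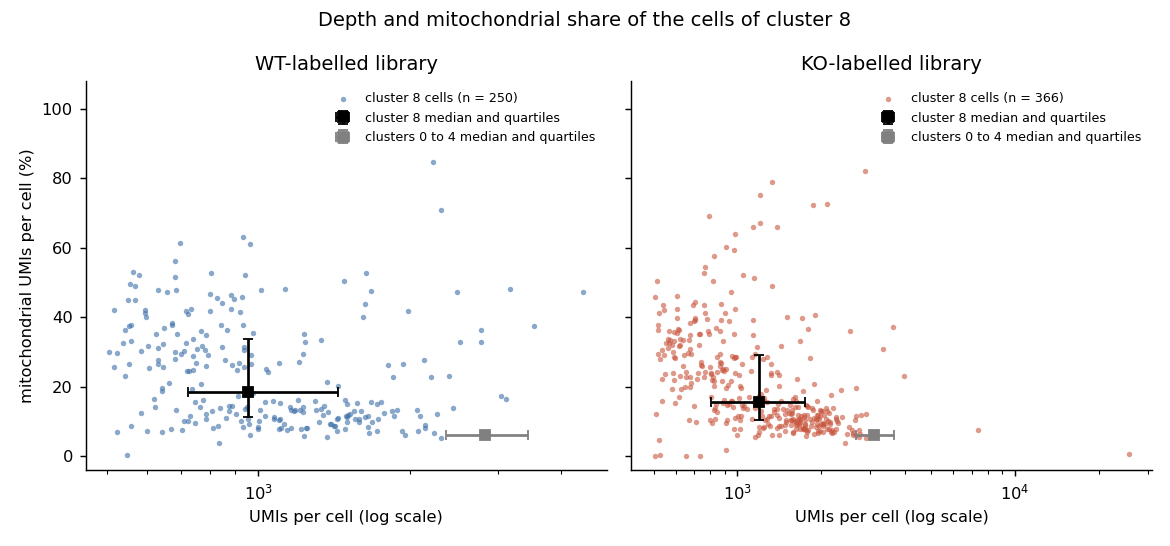
Each coloured point is 1 cell of cluster 8, with its UMIs on a log axis and the percent from mitochondrial genes, for both libraries. Squares with bars give the median and quartiles of cluster 8 (black) and of clusters 0 to 4 (grey). The median of cluster 8 lies to the left of and above that of clusters 0 to 4, at 955.5 and 1199.5 UMIs.

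The separation by mitochondrial share was close to complete at the upper end and absent at the lower end. Of the cells of cluster 8, 122 of 250 (48.8%, exact binomial interval 42.5 to 55.2) and 154 of 366 (42.1%, 37.0 to 47.3) had over 20% mitochondrial UMIs, and in clusters 0 to 4 they were 2 of 3636 and 0 of 4641, the latter with an exact upper bound of 0.0795%. The cluster held 122 of the 126 such cells of the WT-labelled library and 154 of the 158 of the KO-labelled library. All cells above 40% lay in it, 44 and 36 in number. At 10% or less, in the range of most DP cells, lay 47 WT-labelled and 86 KO-labelled cells of the cluster, the deepest cell included. Genes per cell were also fewer at the same depth, with medians of 297 and 310 genes after each cell was thinned to 500 UMIs, against 369 and 372 in clusters 0 to 4 (517.5 and 636 against 1438 and 1570 before thinning). This was not particular to cluster 8, since thinned cells had 292 and 328 genes in cluster 15 and 302 and 318 in cluster 16. Cluster 16 was also shallower, with a median of 759 UMIs against 1082 over both libraries.

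Mitochondrial ribosomal and messenger RNAs held similar parts of the mitochondrial UMIs in the cluster and in DP cells, while single RNAs differed in their ratios. The ribosomal RNAs mt-Rnr1 and mt-Rnr2 made up 78.9% and 77.1% of the mitochondrial UMIs of the cluster and 79.6% and 77.5% of those of clusters 0 to 4. For mt-Nd1, a subunit of respiratory complex I, the level was 8884 CPM and 7511 CPM against 1735 and 1919 CPM, a log2 ratio of 2.36 (2.30 to 2.42) and 1.97 (1.92 to 2.02). mt-Cytb of complex III reached 20453 and 17432 CPM, at a log2 ratio of 1.94 and 1.66. These were the strongest and the most abundant of the mitochondrial messenger RNAs. A gene was called higher or lower in the cluster when its log2 ratio over clusters 0 to 4 was at least 1 above or below the median over the 5516 tested genes, on the same side in both libraries. That median was −0.08 and 0.03. By this rule 219 genes (3.97%) were higher and 730 (13.2%) lower. Of the 12 mitochondrial messenger RNAs that could be tested, 11 were called higher and none lower, with a median log2 ratio of 1.74 and 1.44. The exception was mt-Co1, a subunit of complex IV, at 1.37 (1.25 to 1.49) and 1.02 (0.92 to 1.13), below the intervals of mt-Nd1, and mt-Nd4l had only 4 and 3 UMIs.

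The nuclear genes for the same respiratory chain lay on the other side. Of 40 tested, 35 were called lower and none higher, and all 40 were below 0 in both libraries, with a median log2 ratio of −1.53 in each. Uqcrh, a complex III subunit, was at 200 and 177 CPM against 996 and 879 CPM. Cox5a of complex IV was at 82.8 and 47.3 CPM against 283 and 280 CPM. The least changed were Atp5a1 and Atp5l of the ATP synthase, the latter at −0.35 (−1.13 to 0.26) and −0.84 (−1.49 to −0.31).

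Ribosomal protein messenger RNAs were lower as a whole list, with all 77 called lower. Their UMIs were a median of 1.82% and 2.02% of a cell's UMIs, against 13.4% and 12.6% in clusters 0 to 4, and the median log2 ratio over the 77 genes was −2.21 and −2.19. The lowest, Rpl9, was at 273 and 230 CPM against 2349 and 2174 CPM. Rpl36, the least changed, still lay at −1.49 (−1.74 to −1.26) and −1.45 (−1.63 to −1.28). Reads of ribosomal protein genes can be shared with their processed pseudogenes, so single values are uncertain, and 6 such names (Gm8430, Gm8730, Gm15500, Gm15427, Rps10-ps1 and Rps10-ps2) stood with Rpl9, Rps13, Rps4x and the mitochondrial inner membrane protease subunit gene Immp1l among the 10 genes with the lowest ratios.

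Other abundant cytoplasmic messages were lower too. Of 12 housekeeping genes 6 were called lower and none higher, among them Tpt1, at 1642 and 1559 CPM against 7712 and 6712 CPM, and Fau, which encodes a fusion of a ubiquitin-like protein with a ribosomal protein, at a log2 ratio of −2.77 in both libraries. Fau is also counted in the ribosomal protein list above. Tmsb10, which sequesters actin monomers, went the other way without being called, at 0.81 and 0.20. Of 10 glycolysis genes 4 were called lower, Gapdh at −1.81 (−2.20 to −1.46) and −1.31 (−1.56 to −1.08). Of 18 genes for actin and partners of Cdc42, 6 were lower and none higher, with Arpc3 of the Arp2/3 complex at −1.99 and −1.74. Beside these counts, 13.2% of all tested genes were called lower and 3.97% higher. Among protein-coding genes of the shortest class by genomic span, described below, 30.3% were called lower. Genes of heat shock and early stress showed no call in either direction among 13 tested, at medians of −0.40 and −0.30.

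The list of RNAs that stay in the nucleus was higher or level, with Gm42418 and Gm26917 of a ribosomal RNA-related locus counted in it. All 9 tested lay above 0 in both libraries, 4 were called higher and none lower, and the median log2 ratio was 1.16 and 1.02. Without those 2 names, 2 of 7 were called higher and none lower, at a median of 0.76 and 0.81. Xist, which coats the inactive X chromosome, was called at 1.48 and 1.25. Malat1, at a log2 ratio of 0.76 in both libraries, was not. Gm26917 had the strongest ratio of the list, 587 and 1053 CPM against 56.4 and 47.2 CPM, a log2 ratio of 3.38 (3.12 to 3.63) and 4.48 (4.31 to 4.65). It lies at chr17:39843013-39846341, beside Gm42418 at chr17:39846958-39848788, a name that RefSeq lists as a synonym of the ribosomal RNA-related pseudogene Rn18s-rs5. Tsix is transcribed antisense to Xist, and the strand setting of the counting is not given in the sources used here, so reads of that pair cannot be told apart.

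**Figure D2:**
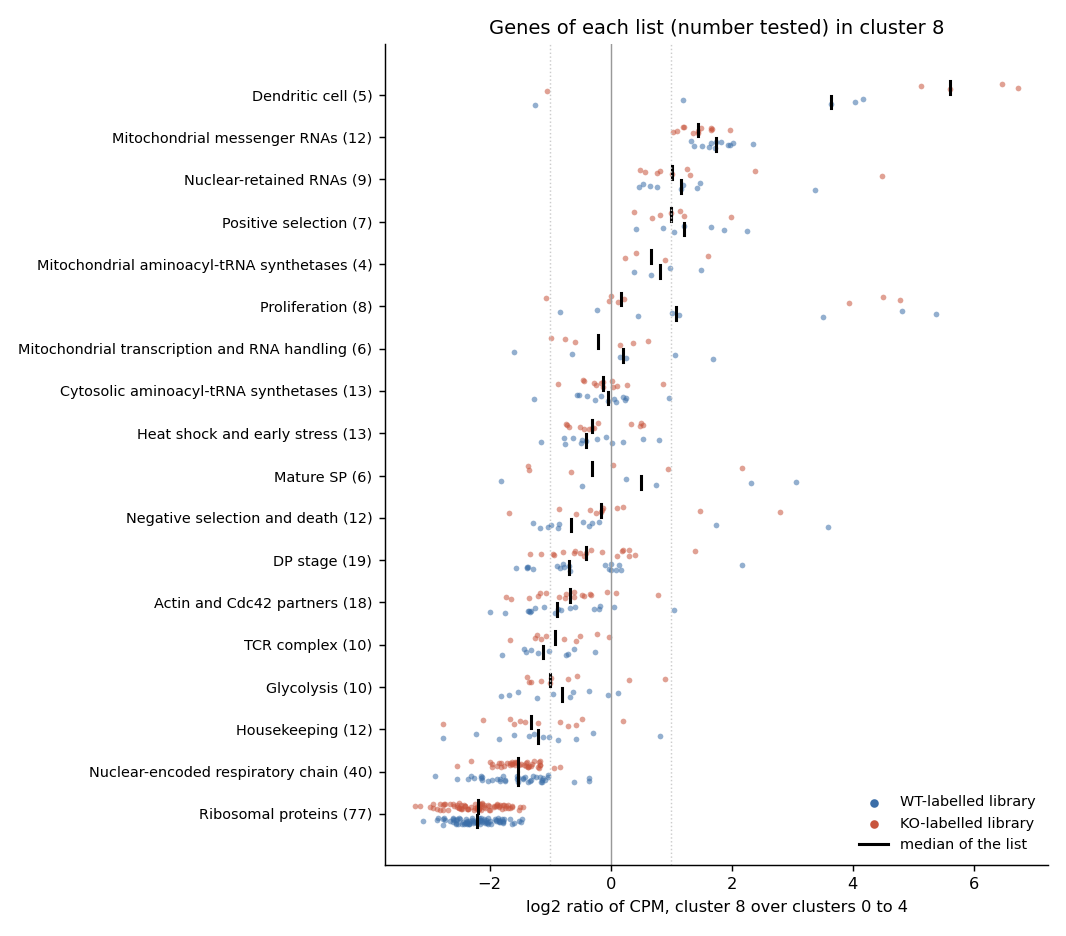
For lists with at least 4 tested genes, the log2 ratio of cluster 8 over clusters 0 to 4 is shown per tested gene and per library, with the list's median as a bar and dotted lines at −1 and 1. Mitochondrial RNAs and nuclear-retained RNAs lie to the right of 0, and ribosomal protein and nuclear respiratory chain genes to the left.

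Genes of the DP stage did not move together. Of 19 tested, 1 was called higher and 2 lower, which is near the 3.97% and 13.2% called among all tested genes. In both libraries 11 of them lay below 0 and 5 above 0, and the list's median was −0.70 and −0.41. The coreceptor Cd4 was at 524 and 804 CPM against 535 and 610 CPM, a log2 ratio of −0.03 (−0.27 to 0.20) and 0.40 (0.25 to 0.54). Cd8b1, the beta chain of the other coreceptor, was lower at 1325 and 1642 CPM against 3469 and 3633 CPM, as was Dntt, the terminal transferase of receptor rearrangement, at −1.56 (−1.80 to −1.33) and −1.33 (−1.51 to −1.16). St6gal1, a sialyltransferase, was called higher at 2.18 and 1.39, on 23 and 39 UMIs. In the T cell receptor complex, 5 of 10 genes were called lower and none higher. Cd3d was at −1.80 and −1.66, while Lck, the kinase that starts the signal, was at −0.26 and −0.03.

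The span of a gene on the chromosome went with its ratio. The 5138 tested protein-coding genes outside the mitochondrial and ribosomal protein genes were split by genomic span into 5 classes of equal size, from a median span of 5.40 kb to 109 kb. The median log2 ratio of the classes, from short to long, was −0.86, −0.37, −0.06, 0.14 and 0.43 in the WT-labelled library and −0.78, −0.29, 0.03, 0.24 and 0.45 in the KO-labelled library. It was higher in each longer class in both libraries. Of the shortest class 30.3% were called lower and 1.07% higher, and of the longest 1.65% and 6.91%.

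The same difference between the longest and the shortest class was computed for each of the 19 clusters against clusters 0 to 4, leaving a cluster out of its own comparison group. Cluster 8 stood at 1.29 and 1.23, and the other 18 clusters lay between −1.03 and 0.11 over both libraries. The comparison is not an even one, since the genes were those tested for cluster 8 against clusters 0 to 4. A gene low in DP cells could thus enter through cluster 8 but not through a cluster outside these. The DP cells of at most 1500 UMIs, 114 and 30 in number, stood at −0.40 and −0.10 against the deeper DP cells. Against these shallow DP cells alone, cluster 8 stood at 1.72 and 1.34. By the annotation, Arpp21 spans 170.8 kb, Lars2 95.7 kb, Cdc42 38.0 kb and Rag1 11.2 kb, so of the 3 markers the shortest was the one below its DP level.

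**Figure D3:**
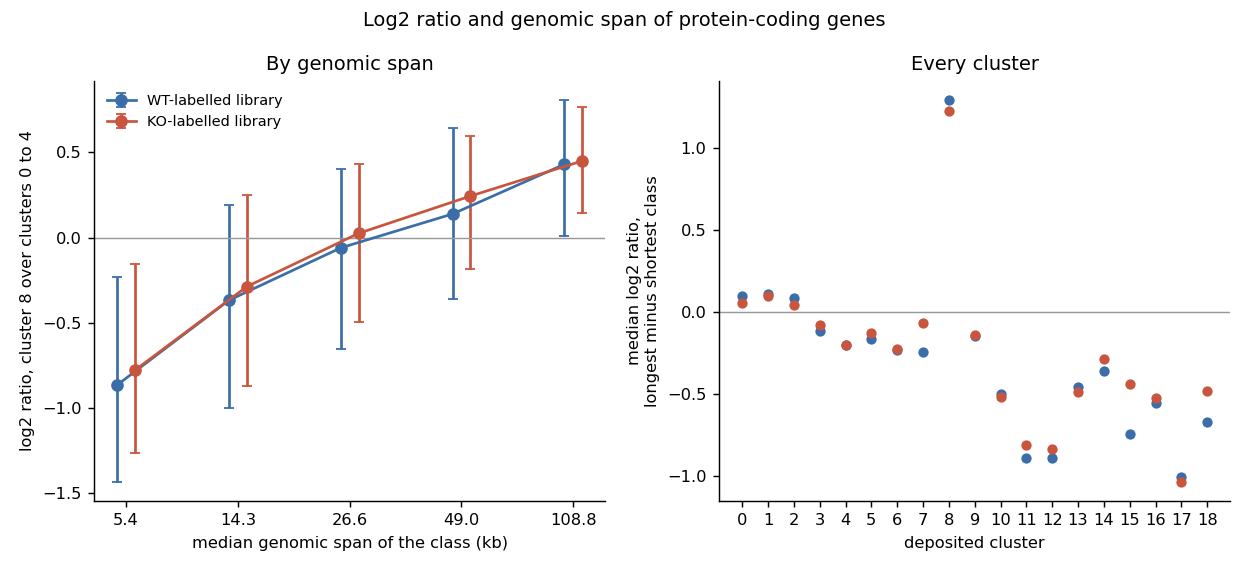
The median log2 ratio of cluster 8 over clusters 0 to 4 is plotted for 5 equal classes of protein-coding genes by genomic span, with the quartiles as bars (left), and the longest minus the shortest class is plotted for each deposited cluster (right), blue for the WT-labelled and red for the KO-labelled library. The medians climb from −0.86 and −0.78 in the shortest class to 0.43 and 0.45 in the longest, and cluster 8 alone stands above 1 on the right, with the other 18 clusters at 0.11 or below.

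Within the cluster, cells were ordered by their mitochondrial share into 4 bins of 0 to 10, 10 to 20, 20 to 40 and over 40%, which held 47, 81, 78 and 44 WT-labelled cells and 85, 126, 118 and 36 KO-labelled cells. Between the first bin and the last, the median UMIs of other genes went from 1143 to 427.5 and from 1604 to 393.5 per cell. The mitochondrial UMIs went the opposite way, with medians of 96, 161, 240 and 381.5 in the WT-labelled and 141, 189.5, 222.5 and 460.5 in the KO-labelled library, from below to above the DP medians of 175 and 191. Since the bins were cut by the share of these UMIs in the total, such opposite courses follow in part from the sorting. They are therefore a description of the bins and not a finding about the cells. Ribosomal protein UMIs went from 5.06% to 1.14% and from 3.35% to 0.797%, below the DP level already in the first bin. Since mitochondrial UMIs dilute all others, the levels of the bins are given as non-mitochondrial CPM, that is CPM with only the UMIs of other genes in the total.

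Single genes differed in their levels across these bins. Each bin holds other cells, so a difference between bins is not a change within a cell. Rag1 was at 2720, 3042, 1023 and 812 non-mitochondrial CPM in the 4 bins of the WT-labelled library and at 3013, 2770, 1497 and 1005 in the KO-labelled library, with 3119 and 2929 in clusters 0 to 4. Up to 20% mitochondrial UMIs, Rag1 was thus near its DP level, and above that it was far below. Cd8b1 was also lower above 20%, with 2190, 2279, 858 and 568 and with 2501, 2191, 1040 and 754 non-mitochondrial CPM, but it lay below its DP level of 3695 and 3868 in every bin. Tmsb4x, which sequesters actin monomers, went from 4709 to 447 and from 2956 to 188 non-mitochondrial CPM between the first and the last bin, with 5316 and 5729 in clusters 0 to 4. Arpp21 was not lower above 20%, at 1552, 1673, 2520 and 2192 non-mitochondrial CPM in the WT-labelled and 1769, 1681, 2309 and 2073 in the KO-labelled library. Xist went from 2939 to 9743 and from 3119 to 6846 non-mitochondrial CPM. Malat1, also of the nuclear list, did not follow Xist in both libraries. It went from 78708 to 88499 and from 96230 to 78696 between the first and the last bin. Its highest values, 108855 and 123046, were in the bin of 20 to 40%.

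**Figure D4:**
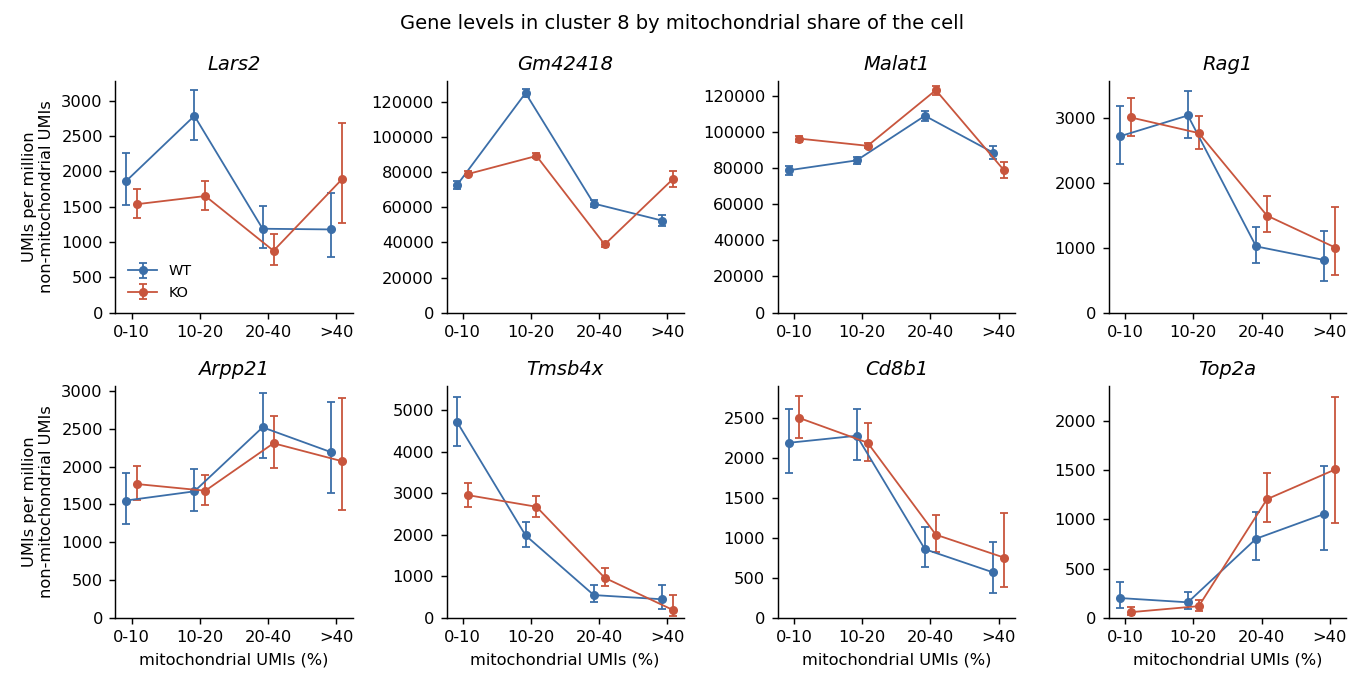
The level of 8 genes, in non-mitochondrial CPM with 95% Poisson intervals, is drawn against the mitochondrial share of the cells of cluster 8 for both libraries. Rag1, Cd8b1 and Tmsb4x are low in the bins above 20%, Top2a is high there, and Arpp21 stays near or above its first value.

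The cells of at most 20% and of over 20% mitochondrial UMIs shared the directions of the larger lists. The ribosomal protein genes had a median log2 ratio of −1.90 in the former and −3.18 in the latter, and the nuclear respiratory chain genes −1.18 and −2.63, where the median of all genes lay at 0.14 and −0.36. The difference between the shortest and the longest genes was also present in both, from −0.55 to 0.50 and from −1.48 to 0.34. With the cells over 20% left out, 76 of 77 ribosomal protein genes and 23 of 40 nuclear respiratory chain genes were called lower. No mitochondrial messenger RNA of 10 tested was called higher, which follows in part from leaving out the cells of highest mitochondrial share. Other lists had fewer calls there as well, with 2 of 18 genes for actin and partners of Cdc42, 2 of 10 of the T cell receptor complex, 3 of 11 housekeeping and 2 of 9 glycolysis genes called lower, where 431 of 4257 genes (10.1%) were called lower in all. Against DP cells of at most 1500 UMIs, 3 of the 18 actin genes were called lower and 1 higher. Of 40 nuclear respiratory chain genes, 22 were called lower in that comparison. Among all genes tested there, 12.1% were called lower and 8.27% higher.

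Of 1749 genes compared, Gm42418 had the pattern most like that of Lars2 across the cells of cluster 8. Per 1000 UMIs of Gm42418, cluster 8 had 22.4 Lars2 UMIs (20.3 to 24.6) in the WT-labelled library and 19.5 (17.9 to 21.2) in the KO-labelled library. The other 18 clusters had between 11.3 and 19.6, clusters 0 to 4 between 15.4 and 17.9. Both RNAs were high in cluster 8, Gm42418 at 68466 and 61198 CPM, and cluster 16, which had the next highest Lars2 at 1277 and 814 CPM, had Gm42418 at 71660 and 50877 CPM. Across the 615 cells of cluster 8, Gm42418 was the gene whose share of a cell's UMIs correlated most with that of Lars2 among 1749 genes, with Pearson's r of 0.50 (0.40 in WT-labelled and 0.60 in KO-labelled cells), while mt-Nd5 stood at rank 3 with r of 0.18 and mt-Rnr2 had r of 0.01. In clusters 0 to 4, Gm42418 was again first, with r of 0.39, and mt-Rnr2 and mt-Rnr1 followed with r of 0.26 and 0.24. These are cells of 2 libraries and share their depth, so the values only describe them. By mitochondrial share, Lars2 was at 1862, 2784, 1187 and 1177 non-mitochondrial CPM in the WT-labelled library and 1535, 1650, 875 and 1884 in the KO-labelled library, with no steady course. Of the other genes that load amino acids onto mitochondrial transfer RNA, only 3 of 16 could be tested, Cars2, Iars2 and Vars2, and none was called, and of 13 tested cytosolic ones none was called either.

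**Figure D5:**
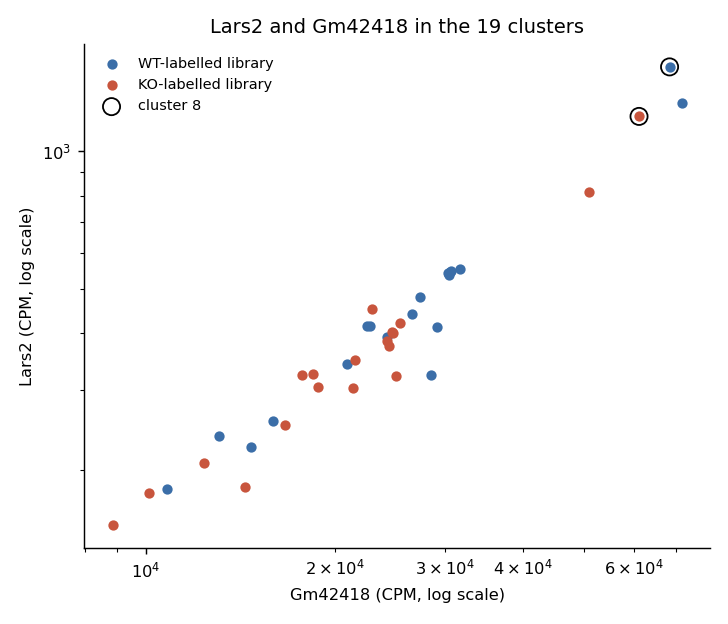
Each point is 1 cluster in 1 library, with the CPM of Gm42418 and of Lars2 on log axes and cluster 8 ringed. Clusters 8 and 16 lie apart at the upper right, with Lars2 between 814 and 1532 CPM.

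A few genes that DP cells hardly express were higher in cluster 8, most of them carried by small numbers of cells. To be tested, a gene needed an average CPM of both groups corresponding to at least 20 UMIs in the cluster. Genes so low in DP cells could pass only by being higher in cluster 8, so the filter largely fixed their calls as higher. This applies to genes such as Mki67 and Top2a, and below to Bcl2, Ms4a4b, Ebf1, the MHC class II genes, Gm8995, Gm4759 and Knl1. Any other gene below that average in DP cells could hardly be called lower. Of 8 proliferation genes 3 were called higher, Mki67, Top2a and Cenpf, which belong to the G2 phase and mitosis. Top2a was at 328 and 300 CPM against 11.7 and 13.3 CPM, a log2 ratio of 4.81 (4.41 to 5.20) and 4.50 (4.18 to 4.81). Its 95 and 146 UMIs lay in 23 and 28 cells, and 70 and 119 of them in cells of over 20% mitochondrial UMIs. After thinning to 500 UMIs, 6.00% (3.40 to 9.70) and 5.48% (3.38 to 8.34) of the cells had a Top2a UMI, against 0.633% and 0.798% in clusters 0 to 4, and 9.20% and 7.67% against 3.00% and 3.88% before thinning. Stmn1 and Tubb5, proliferation genes with short and abundant messages, were at −0.84 and −1.07, and at −0.23 and 0.01. The 25647-UMI cell, with 48 Top2a UMIs and 0.639% mitochondrial UMIs, is not in these counts.

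Among genes of selection and survival, Cd5, which dampens T cell receptor signals, was at 304 and 257 CPM against 63.9 and 65.2 CPM. Of 10 positive selection genes 7 could be tested, and 3 were called higher and none lower. Among all tested genes 3.97% were called higher and 13.2% lower. A listed gene low in DP cells could be tested only if higher in cluster 8. The lack of lower calls is therefore in part set by the filter. Cd69, an early activation marker, was at 1.87 (1.12 to 2.49) and 1.22 (0.61 to 1.73). The survival gene Bcl2 was at 145 and 109 CPM against 12.1 and 15.8 CPM, a log2 ratio of 3.60 (3.05 to 4.10) and 2.80 (2.33 to 3.22), on 42 and 53 UMIs in 28 cells of each library. Its antagonist Bcl2l11 (Bim) was at 1.75 and 1.48, while Bax, which permeabilises the outer mitochondrial membrane, was called lower at −1.17 (−2.02 to −0.51) and −1.68 (−2.50 to −1.03). Of 12 genes of negative selection and death, these were the 3 called. Ms4a4b, a marker of mature single positive cells, was at 3.06 and 2.17 on 37 and 42 UMIs, but S100a10 of the same list was called lower, and 6 of the list's 10 genes could be tested.

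Of the marker lists of other cell types only some genes could be tested, so the number of such cells in the cluster was not determined. Ebf1, the transcription factor of the B lineage, had 74 UMIs in 7 KO-labelled cells and none in 250 WT-labelled cells, which allows a share of cells with a UMI of up to 1.20% by a floor of 3 counts and 1.46% by the exact interval. At this depth that limits cells with a UMI, not cells that express the gene. For the MHC class II genes of dendritic cells, 1 KO-labelled cell of 7380 UMIs carried 30 of the 35 H2-Aa UMIs and 28 of the 45 Cd74 UMIs of its library. Of the 5 dendritic cell genes tested, H2-Aa, H2-Ab1, H2-Eb1 and Cd74 were called higher and Bst2 lower, and in the WT-labelled library these 4 rested on 5, 1, 6 and 5 UMIs. Of the B cell list 3 of 9 genes were tested and only Ebf1 was called, and Cd79b, Ighm and the tested genes of the macrophage, gamma-delta T cell, double negative, thymic epithelial and endothelial lists (2, 2, 2, 1 and 1) were not called, and none of the red blood cell list could be tested. Gm8995 and Gm4759, which share sequence with related copies and whose counts are therefore uncertain, were also among the 10 highest genes, beside Knl1 of the kinetochore.

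Between the libraries, few genes of cluster 8 were called. Of 5578 genes tested, 98 (1.76%) were called higher and 98 (1.76%) lower in the KO-labelled library, at 2-fold or more from the median of 0.09 with an interval excluding it, and among genes with at least 50 UMIs they were 26 and 9. The lowest of the latter, Ctsl, a lysosomal protease of thymic antigen processing, had 728 CPM in the WT-labelled and 98.7 CPM in the KO-labelled library, which is −2.87 on the log2 scale, and in clusters 0 to 4 the ratio was −2.84. Dnajc15, a mitochondrial co-chaperone, was at 44.9 and 198 CPM, a log2 ratio of 2.09, with 1.72 in clusters 0 to 4. mt-Nd3, of complex I, was at 283 and 656 CPM, a log2 ratio of 1.21 in both cell groups. These 3 genes thus differed alike in the cluster and in the DP cells. Klf6, an immediate early transcription factor, was at 24.2 and 105 CPM, with a log2 ratio of 2.03 in cluster 8 and 0.76 in clusters 0 to 4. Ebf1, Cd74 and H2-Eb1 completed the 5 highest and rested on the few cells above. Atad2, a chromatin-bound ATPase, H1f5, a linker histone, Uvssa, a repair factor, and Mrpl52, a mitochondrial ribosomal protein, completed the 5 lowest, at −1.24, −1.06, −1.05 and −1.03 on 48 and 34, 86 and 69, 31 and 25, and 33 and 27 UMIs. With 1 library per condition, the libraries and the genotypes cannot be told apart.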

How the data were processed

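Single thymocytes of 1 WT-labelled and 1 KO-labelled library were profiled by a 3′ droplet assay on the 10x Genomics platform. The authors deposited raw UMI counts per gene and cell (20282 genes, 13683 cells) with a table of clusters. The submitters' processing notes name Cell Ranger 3.0.2, STAR, Seurat and mm10, and the study removed cells with under 200 or over 6000 genes or over 50000 reads. The deposited mitochondrial percent was 0 in every cell, so it was computed here from the 34 genes named mt-. Doublets were not called here, and free RNA was not estimated.

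Counts were summed per cluster and library, without cells of over 10000 UMIs, as CPM. Log2 ratios were taken after adding 0.5, with exact conditional binomial intervals (scipy 1.17.1). Levels carry exact Poisson and shares exact Clopper-Pearson intervals. A gene was tested against clusters 0 to 4 where the average CPM of both groups corresponded to at least 20 UMIs in cluster 8, and between libraries with at least 20 UMIs in the cluster. Thinning drew 500 UMIs per cell without replacement. Genomic spans came from GENCODE vM21, in which 19769 of 20282 gene names matched a unique symbol. Scripts were tested on simulated data with counting error only. The rule against clusters 0 to 4 called 8 of 50 genes with a true log2 ratio of 1 and 9 of 43 with −1. It called 50 of 50 with a ratio of 2, 34 of 35 with −2, and 1 of 5146 unchanged genes. A gene not called may thus still differ 2-fold. The calls use sizes of difference, not p-values, since n was 1 library per condition.

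Named genes were the 3 markers, the 13 mitochondrial messenger RNAs, Cdc42, the 2 highest and 2 lowest tested genes of each list, the 10 highest and 10 lowest genes against clusters 0 to 4, the 5 highest and 5 lowest between libraries with at least 50 UMIs, and the 10 leading genes. Xist, Malat1, Gm42418, Tmsb4x, Cenpf and the other genes named outside this rule were picked with their values already seen. The members and lists were chosen with earlier results of these data known. Alternatives were TMM (edgeR 4.0.16) and DESeq2 1.42.0 size factors on the summed counts, other count minimums and mitochondrial limits, thinning, means over cells, and, added after the data were seen, shallow DP cells as the comparison group.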

Additional observations from a re-analysis of the deposited data

Results flagged for a closer look

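Of 119 named genes, 10 had a log2 ratio of KO over WT whose counting interval lay on one side of 0 in cluster 8 and on the other side in clusters 0 to 4. The difference between these ratios was not tested. Gm26917 was at 0.84 in cluster 8 and −0.26 in clusters 0 to 4. Ighm, the constant region of the IgM heavy chain, was at 1.27 and −0.11, on 30 and 123 UMIs in the cluster. Rag1 was at 0.27 and −0.090. Uvssa, a factor of transcription-coupled repair, was at −1.05 and 0.35, on 31 and 25 UMIs. The other 6 were mitochondrial RNAs, each lower in the KO-labelled library in cluster 8 and higher in clusters 0 to 4: mt-Cytb at −0.23 and 0.048, mt-Nd1 at −0.24 and 0.15, mt-Nd2 at −0.088 and 0.26, mt-Nd4 at −0.15 and 0.18, mt-Nd5 at −0.43 and 0.11, and mt-Rnr1 at −0.30 and 0.010. Beside these, the mitochondrial share of the cluster's summed UMIs was 23.0% (WT-labelled) and 18.5% (KO-labelled), against 6.11% and 6.08% in clusters 0 to 4.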

How the results depend on the processing

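With 1 library per condition no difference between genotypes has a replicate check, and leaving out a replicate was not possible. No paired analysis was possible because each condition has 1 library. Of the alternative values computed, 66 stayed within counting error of the reported value or within 1.5 times a reported count, 43 moved further and 3 changed sign. Values are given for the WT-labelled and then the KO-labelled library. With only clusters 0 to 4 and 8 as the denominator, the share of cluster 8 was 6.43% and 7.31%. Without mitochondrial genes the median depth was 763.5 and 937.5 UMIs. Scaling factors shift the ratios of all genes alike, so the counts of called genes, taken from the median, do not change with them. With TMM factors Lars2 was at 1.30 and 1.40, Rag1 at −0.96 and −0.62 and Arpp21 at −0.19 and, with its sign changed, −0.095. With DESeq2 size factors Lars2 was at 1.33 and 1.43, Rag1 at −0.94 and −0.59 and Arpp21 at −0.16 and, again with its sign changed, −0.067. Without cells of over 10% mitochondrial UMIs Lars2 was at 1.69 and 1.87, Rag1 at −0.22 and, with its sign changed, 0.019, and Arpp21 at 0.23 in the KO-labelled library. Against DP cells of at most 1500 UMIs Lars2 was at 1.10 and 2.13, Rag1 at −0.46 and −0.52 and Arpp21 at 0.41 and 0.54. As means over cells, KO-labelled Lars2 was at 1.40 and Rag1 at −0.58, and after thinning Lars2 was at 1.33, Rag1 at −0.57 and Arpp21 at 0.32 there. The counts of genes higher and lower than in clusters 0 to 4 were 39 and 176 without cells of over 10% mitochondrial UMIs and 95 and 431 without those of over 20%, where fewer genes could be tested (1967 and 4257). They were 1592 and 1492 with a minimum of 1 UMI and 119 and 456 with one of 50, and 450 genes were higher than in the shallow DP cells. The genes called higher changed with the setting, since of the reported 219 only 86 were among the 1592, 77 among the 119, 106 among the 450, 67 among the 95 and 18 among the 39. Of the reported 730 lower genes, all were among the 1492, 456 were called with a minimum of 50 and 412 without cells of over 20%. Between libraries, 63 genes were higher and 47 lower without cells of over 10%, 191 were lower with a minimum of 1 UMI, and 26 and 9 were called with one of 50. Where no number of genes tested is given, the cause of a change was not tested.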
